A study of Mus musculus with 12 samples.

Results

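The CXC chemokines that attract neutrophils, their receptor Cxcr2, the granulocyte growth factor Csf3 with its receptor Csf3r, and the calprotectin genes S100a8 and S100a9 were described in 12 mouse mammary tumours. These 9 genes were taken by symbol from a count table of 39017 genes, and 8 of them were among the 19370 genes tested. The ninth, Cxcl3, had 17 counts in all. NIC cells, an ErbB2-positive mouse breast cancer line that lacks p66ShcA (the longest protein made from the adaptor gene Shc1), were injected at 250000 cells into the fourth mammary fat pad, and the hosts were FVB/N females aged 8 to 12 weeks. The p66Low tumours grew from NIC cells without added p66ShcA and the p66High tumours from NIC cells that constitutively overexpress it. Parental tumours came from the unselected cells. Aggressive tumours came from cells that had passed through 2 rounds of selection in mice and were then re-explanted. Each of the 4 combinations of line and stage had 3 tumours, and RNA came from whole tumour, so host cells are part of every library.

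Cxcl1, Cxcl2, Cxcl3 and Cxcl5 encode small secreted proteins with an ELR motif, which bind the receptor Cxcr2 and draw neutrophils out of the blood into tissue. Csf3 encodes G-CSF, which acts through Csf3r to make neutrophils in the bone marrow and release them, and several solid tumours are known to secrete it. S100a8 and S100a9 encode calcium-binding proteins that pair as calprotectin, make up much of the cytosolic protein of neutrophils, and are also made by monocytes and by stressed or squamous epithelium.

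The 4 chemokine genes lie in 1 cluster of 146.6 kb on chromosome 5 (mm10), all on the plus strand: Cxcl5 at 90759360 to 90761624, Cxcl3 at 90786103 to 90789600, Cxcl1 at 90891241 to 90893115 and Cxcl2 at 90903871 to 90905938. S100a8 (chromosome 3, 90668978 to 90670035, plus strand) and S100a9 (90692632 to 90695721, minus strand) are 22.6 kb apart. Cxcr2 is on chromosome 1 (74153989 to 74161246), Csf3 on chromosome 11 (98701263 to 98703629) and Csf3r on chromosome 4 (126024550 to 126044440). All are protein-coding, and none overlaps another annotated gene. RefSeq promoter sequences (GRCm38, 250 bases before to 50 after the start) matched 7 of the 9 genes, all but Cxcl5 and Csf3. They were searched on both strands for GGGNNTTTCC, a form of the site bound by NF-kB, which induces many inflammatory chemokines. The chemokine genes Cxcl1, Cxcl2 and Cxcl3 held it, and the windows from position -150 to -31 before their starts are printed because these neighbouring, related genes were at very different levels in the tumours. Capitals mark the matches.

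Cxcl1, chr5:90891095-90891214, plus strand: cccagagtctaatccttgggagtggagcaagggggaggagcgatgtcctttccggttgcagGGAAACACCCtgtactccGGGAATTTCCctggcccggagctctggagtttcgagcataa
Cxcl2, chr5:90903749-90903868, plus strand: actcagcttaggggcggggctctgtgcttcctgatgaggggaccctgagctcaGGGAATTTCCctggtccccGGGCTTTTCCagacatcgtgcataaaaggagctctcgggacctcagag
Cxcl3, chr5:90785951-90786070, plus strand: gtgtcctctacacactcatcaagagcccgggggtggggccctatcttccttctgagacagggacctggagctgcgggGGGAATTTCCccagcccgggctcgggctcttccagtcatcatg

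The match GGGAATTTCC was present in all 3 windows, beginning at -71 in Cxcl1, -97 in Cxcl2 and -73 in Cxcl3. Cxcl1 had a further match on the opposite strand from -89, and Cxcl2 a further match from -78. None of these matches overlaps another. Of 32851 promoters of this length, 535 (1.63%) hold the motif. A second motif, TTGCNNAA, a form of the site bound by C/EBP factors of the granulocyte lineage, was found in the S100a9 promoter (TTGCTTAA from -236) and not in those of S100a8, Csf3r or Cxcr2. It occurs in 10.8% of all promoters.

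Total counts ranged from 17.4 to 76.1 mega-counts per tumour. A count of 3, taken as the floor for detection, was worth 0.0394 to 0.156 on the CPM scale (counts per mega-count of library, scaled by trimmed mean of M-values), and the group means of the 9 genes ranged from 0 to 9.77 CPM. Shc1 followed the labels (59.0 to 69.9 CPM in p66Low and 223 to 774 CPM in p66High tumours). The level of 774 CPM was that of p66High aggressive replicate 3 alone, and the other p66High tumours had 223 to 271 CPM. The luminal keratin Krt8 (576 to 1006 CPM) and the epithelial adhesion gene Epcam (572 to 928 CPM) were high in every library. The libraries of 3 tumours stood apart by genes of B cells and lymph node stroma, with a summed level of 13 such markers of 265 and 376 CPM in replicates 1 and 2 of the p66Low aggressive group and of 81.1 CPM in p66High parental replicate 3, against 0.812 to 2.84 CPM in the other 9. Member results and gene list counts that rest on these libraries are given with and without them. The refits of the lists were chosen after seeing the data. Leaving out all 3 keeps 1 tumour in the p66Low aggressive group. Fewer genes were then called in every comparison, with counts over all genes given at the end. List calls lost in that fit are to be read beside this drop, because the shares of genes called given with the lists are those of all 12 libraries. Nothing in the labels states that the replicates were grown in different mice, and p-values accordingly reflect only how these particular tumours vary. Line and stage also set which cells were injected. Selection and p66 level therefore cannot be told apart from other differences between those cell populations. Words such as raised, lowered or fell give only the direction between groups.

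Within parental tumours, 2 of the 8 tested members, Cxcl1 and Cxcl5, were higher in p66High than in p66Low, while 8.08% of all genes tested were called in that comparison (edgeR quasi-likelihood test, adjusted p under 0.05). Selection of p66Low cells raised 4 members, Cxcl1, Cxcl5, Csf3r and S100a9, against a background of 16.6% of genes called. Selection of p66High cells raised Cxcl5 and lowered Csf3 and S100a8, against a background of 5.94%. Within aggressive tumours, Cxcl5 was higher in p66High, and Cxcr2, Csf3r, S100a8 and S100a9 were lower, with 21% of genes called. The change with selection differed between the lines for Cxcl1, Csf3r and S100a8, each of them less raised or more lowered in p66High, with 12.4% of genes called for this interaction. The median log2 difference over the 8 members was 1.34, 1.78, -0.40, -1.07 and -1.91 in these 5 comparisons in turn, and that over all genes tested was -0.01, -0.02, -0.00, 0.02 and 0.05. The comparisons share groups, so the same tumours stand behind several of these values. In the 4 pairwise comparisons in turn, the 2 groups did not overlap for 29.9%, 32.8%, 32.6% and 38.2% of all genes tested.

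**Figure D1:**
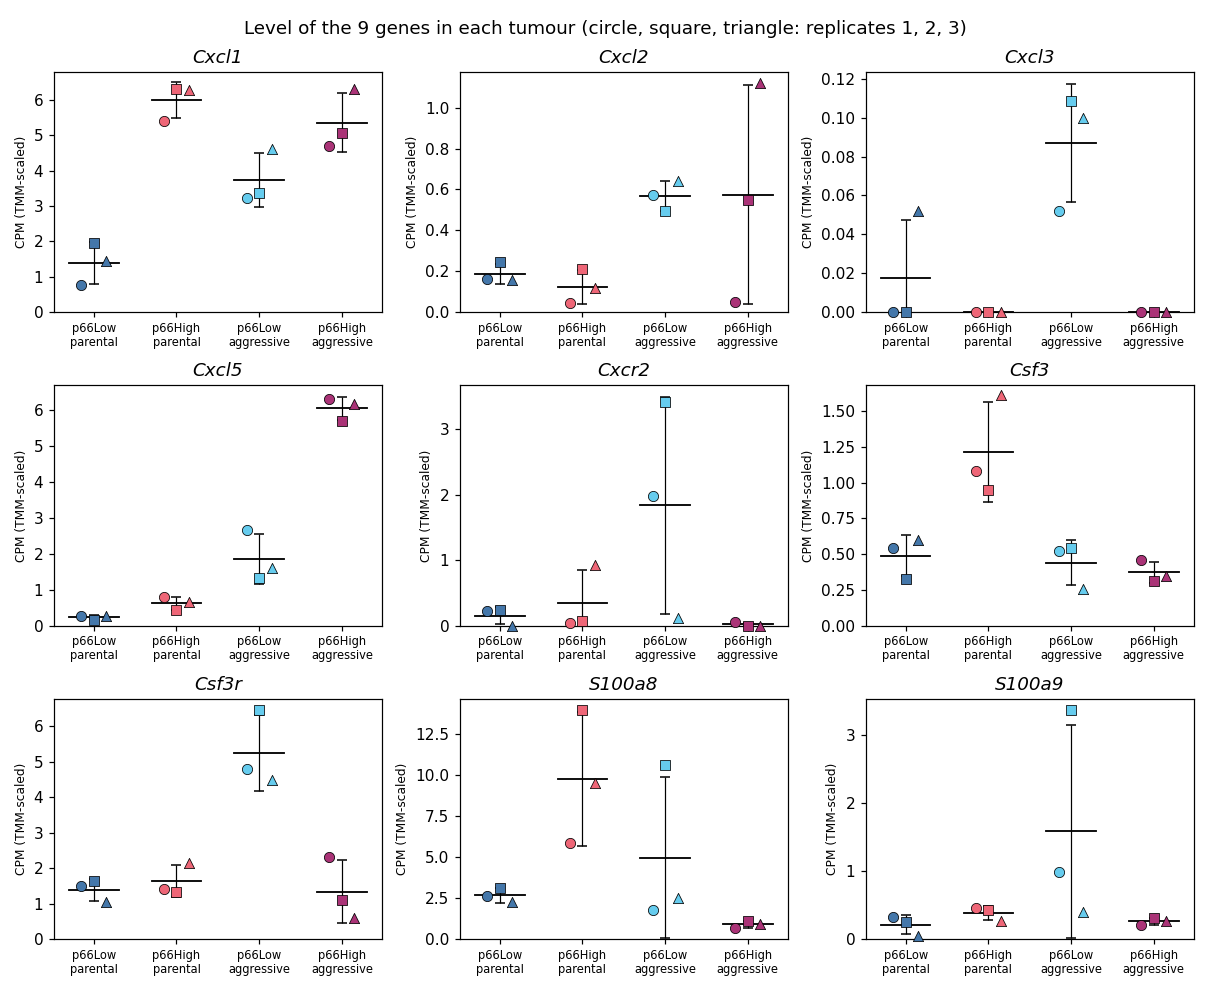
Level of each of the 9 genes in CPM (vertical axes from 0, scale differing by panel) in the 12 tumours; points are tumours, the horizontal bar is the group mean and the whisker the SD (n = 3). Cxcl5 was highest in the 3 p66High aggressive tumours (5.70 to 6.32 CPM), while Cxcr2, Csf3r and S100a9 were highest in p66Low aggressive replicate 2.

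Cxcl1 (KC), a ligand of Cxcr2 made by epithelium and stroma in inflammation, was lowest in p66Low parental tumours, 4.37-fold higher in p66High parental tumours and 2.73-fold higher in p66Low tumours after selection. It was at 0.756, 1.95 and 1.46 CPM in p66Low parental tumours and at 5.41, 6.30 and 6.29 CPM in p66High parental tumours. The p66Low aggressive tumours had 3.23, 3.38 and 4.61 CPM, and the p66High aggressive tumours 4.70, 5.07 and 6.30 CPM. Every p66Low parental tumour was below every other tumour, and both p66High groups overlapped. The log2 difference between p66High and p66Low parental tumours was 2.13 (SE 0.30, adjusted p = 0.00195), and it passed in all 24 alternative settings. With selection Cxcl1 rose by 1.45 in p66Low (SE 0.30, adjusted p = 0.00865) and differed by -0.17 in p66High (SE 0.28, adjusted p = 0.779). The selection difference in p66High minus that in p66Low was -1.62 (SE 0.41, adjusted p = 0.0277). Among aggressive tumours the difference between the lines was 0.51 (95% interval -0.15 to 1.17, adjusted p = 0.244), so the order of these groups was not settled. Without the 3 libraries with lymph node genes the rise in p66Low was 1.75 (adjusted p = 0.0512) and the interaction -1.87 (adjusted p = 0.125), and neither passed. The interaction did not pass without p66Low parental replicate 3, p66High parental replicate 2 or 3, or p66High aggressive replicate 1 or 2 (-1.53 to -1.69, adjusted p = 0.0510 to 0.0589). In both p66High groups the sample titles give replicates 1 and 2 the same number, and with such tumours summed the interaction was -1.59 (adjusted p = 0.0875).

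Cxcl5 (LIX), the ligand of Cxcr2 best known from epithelial cells, rose with selection in both lines and ended highest in p66High aggressive tumours. It was at 0.270, 0.162 and 0.260 CPM in the p66Low parental group and 0.789, 0.422 and 0.656 CPM in p66High parental tumours. The p66Low aggressive tumours had 2.66, 1.33 and 1.60 CPM, and the p66High aggressive tumours 6.32, 5.70 and 6.17 CPM. The 4 groups did not overlap, rising from p66Low to p66High among parental tumours and again from p66Low to p66High among aggressive ones, and the highest tumour had 38.9 times the level of the lowest. Selection raised Cxcl5 by 2.94 on the log2 scale in p66Low (SE 0.35, adjusted p = 0.00061) and by 3.26 in p66High (SE 0.32, adjusted p = 0.000364). A difference in this rise between the lines was not detected (0.32, 95% interval -0.79 to 1.44, adjusted p = 0.704). Cxcl5 was higher in p66High than in p66Low aggressive tumours by 1.73 (SE 0.30, adjusted p = 0.0026), and both selection results and this difference passed in all 24 alternative settings. In parental tumours the difference was 1.41 (SE 0.36, adjusted p = 0.0330), and it passed in 13 of 24 settings. It did not pass in fits without any one of the 3 p66Low parental tumours, p66High parental replicate 1 or 3, or p66High aggressive replicate 1 or 2 (1.22 to 1.53, adjusted p = 0.05003 to 0.114), nor without the 3 libraries with lymph node genes (1.38, adjusted p = 0.0770), nor with tumours of one title number summed (1.46, adjusted p = 0.0612).

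Cxcl2 (MIP-2), which myeloid cells make early in inflammation, was near the floor in parental tumours and higher in most aggressive ones. It was at 0.162, 0.244 and 0.156 CPM in the p66Low parental group and 0.0451, 0.211 and 0.118 CPM in p66High parental tumours. The p66Low aggressive tumours had 0.573, 0.495 and 0.642 CPM. The p66High aggressive tumours were spread over 0.0508, 0.550 and 1.12 CPM, so that this group held both the highest level and one close to the lowest of the series. No comparison of Cxcl2 passed edgeR's test with all 12 tumours fitted. The log2 difference with selection was 1.62 in p66Low (SE 0.79, adjusted p = 0.189) and 2.20 in p66High (SE 0.82, adjusted p = 0.141). Without p66High aggressive replicate 1, the tumour with 0.0508 CPM, the latter was 2.78 with an adjusted p of 0.0256. The difference in p66Low passed in 1 of 23 alternative settings, the edgeR fit of the 6 tumours compared (adjusted p = 0.0334).

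Cxcl3, the chemokine closest to Cxcl2, had 2 counts in p66Low parental tumours, all in replicate 3, and 1, 7 and 7 counts in the p66Low aggressive tumours. It had 0 counts in all 6 p66High tumours. In CPM, the p66Low aggressive level was 4.88 times that of p66Low parental, with a 95% counting interval of 1.14 to 44.0. Most low counts in this table are even (64.6 to 71.9% of counts of 1 to 20 in each library), as where both ends of a read pair are counted, and with counts divided by 2 the interval was 0.698 to 231, which includes no difference. Such intervals cover counting error only.

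Expressed per length of exon, so that genes can be compared, the summed level of the 4 ligands was lowest in p66Low parental tumours (0.959 ± 0.311 CPM per kb, SD, n = 3) and highest in p66High aggressive tumours (6.39 ± 0.72). The p66High parental tumours had 3.59 ± 0.23 and the p66Low aggressive tumours 3.29 ± 0.45 CPM per kb, and these groups overlapped (3.33 to 3.76 against 2.79 to 3.66). Between genes, Cxcl1 had group means of 0.740 to 3.20 CPM per kb, Cxcl5 0.124 to 3.25, Cxcl2 0.0603 to 0.278 and Cxcl3 at most 0.0248. The 2 groups with overlapping sums differed in their mixture. Cxcl1 made up 86.6 to 91.1% of the sum in p66High parental tumours and 50.1 to 67.3% in p66Low aggressive tumours. In p66High aggressive tumours Cxcl1 made up 42.3 to 46.6% and Cxcl5 45.9 to 57.3%. In p66Low parental tumours, where the sum was small, Cxcl1 made up 64.4 to 83.5%.

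**Figure D2:**
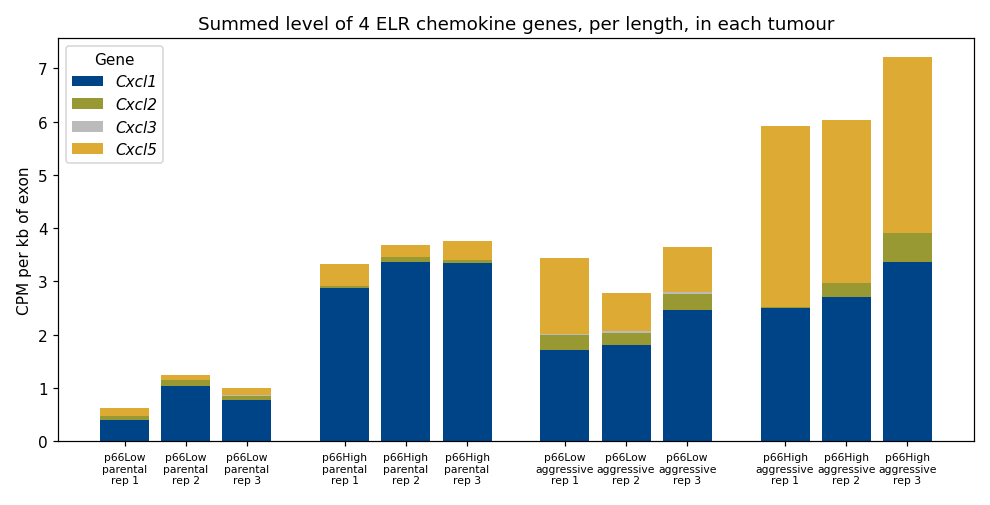
Summed level of Cxcl1, Cxcl2, Cxcl3 and Cxcl5 in CPM per kb of exon (vertical axis from 0) in each of the 12 tumours; colours split each bar by gene. Cxcl5 is a thin layer in parental tumours and 45.9 to 57.3% of the bar in p66High aggressive tumours.

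Cxcr2, the receptor that these chemokines share and found mainly on neutrophils and also on some lymphocytes, had most of its counts in 3 libraries. It had 8, 6 and 0 counts in p66Low parental tumours, 2, 2 and 70 counts in p66High parental tumours, 38, 220 and 8 counts in p66Low aggressive tumours, and 2, 0 and 0 counts in p66High aggressive tumours. The 3 libraries with 38 or more counts were the same 3 that were rich in lymph node genes (1.98 and 3.41 CPM in p66Low aggressive replicates 1 and 2, and 0.919 CPM in p66High parental replicate 3). The other 9 tumours had at most 0.244 CPM, including the p66High aggressive tumours, where the summed ligand level was highest. The part of lymph node tissue in these counts was not tested. In bulk tissue, fewer cells of a type and less RNA per cell cannot be told apart.

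The Cxcr2 level of p66Low aggressive tumours was 76.1 times that of p66High aggressive tumours, with a counting interval of 20.9 to 632, or 13.4 to 3028 with counts divided by 2. The test passed for this comparison (log2 difference -6.19, adjusted p = 0.0280). It did not pass without either p66Low aggressive replicate 1 or 2 or without any one p66High aggressive tumour (adjusted p = 0.0516 to 0.0971), nor with tumours of one title number summed (-6.27, adjusted p = 0.0786). Without both p66Low aggressive libraries rich in lymph node genes the log2 difference was -2.22 (adjusted p = 0.625). The other comparisons of Cxcr2 did not pass (adjusted p = 0.0511 to 0.594), and the log2 difference between parental lines went from 1.37 to -1.33 without p66High parental replicate 3.

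Csf3 (G-CSF) was highest in p66High parental tumours. It was at 1.08, 0.950 and 1.61 CPM there, and at 0.540, 0.325 and 0.598 CPM in p66Low parental tumours. The p66Low aggressive tumours had 0.521, 0.542 and 0.257 CPM and the p66High aggressive tumours 0.457, 0.314 and 0.345 CPM. Every p66High parental tumour was above every other tumour, and the other 3 groups overlapped. With selection Csf3 fell by 1.70 on the log2 scale in p66High (SE 0.40, adjusted p = 0.0300) and differed by -0.20 in p66Low (SE 0.40, adjusted p = 0.790). The difference between parental lines was 1.31 (SE 0.38, adjusted p = 0.0615), and the interaction was -1.50 (SE 0.56, adjusted p = 0.105). The fall did not pass when any one of the 6 tumours compared was left out (-1.45 to -1.89, adjusted p = 0.0598 to 0.116). It did not pass with tumours of one title number summed either (-1.81, adjusted p = 0.124). Nor did it pass without the 3 libraries with lymph node genes, among them p66High parental replicate 3, which had the highest Csf3 level (1.61 CPM).

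Csf3r, the G-CSF receptor, carried by neutrophils and their precursors and at lower levels by monocytes and macrophages, was highest in p66Low aggressive tumours. Their levels were 4.79, 6.47 and 4.48 CPM, above those of all other tumours. The p66Low parental tumours had 1.49, 1.62 and 1.04 CPM, the p66High parental tumours 1.398, 1.34 and 2.15 CPM, and the p66High aggressive tumours 2.31, 1.10 and 0.604 CPM, with overlap among these groups. Selection raised Csf3r by 1.93 in p66Low (SE 0.41, adjusted p = 0.00981), while in p66High the difference was -0.27 (SE 0.41, adjusted p = 0.753). The interaction was -2.20 (SE 0.58, adjusted p = 0.0318), and Csf3r was lower in p66High than in p66Low aggressive tumours by 1.94 on the log2 scale (log2 difference -1.94, SE 0.41, adjusted p = 0.00713).

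Unlike Cxcr2, Csf3r was also high in p66Low aggressive replicate 3 (4.48 CPM), whose lymph node markers summed to 2.80 CPM. Without the 3 libraries rich in those markers, which leaves replicate 3 alone in its group and assumes that it varies like the others, the rise in p66Low was 1.70 (adjusted p = 0.136) and the difference between aggressive lines was -1.69 (adjusted p = 0.114). The rise was 1.78 without p66Low parental replicate 3 (adjusted p = 0.0504). The interaction did not pass without p66Low parental replicate 1 or 3, p66High parental replicate 3, p66Low aggressive replicate 2 or p66High aggressive replicate 2 (-1.97 to -2.28, adjusted p = 0.0586 to 0.0821), and was -1.70 without the 3 libraries (adjusted p = 0.287) and -2.44 with tumours of one title number summed (adjusted p = 0.0543). T cell markers were also high in that replicate: the summed level of 9 such genes was 36.9 CPM there, 111 and 195 CPM in replicates 1 and 2, 37.2 CPM in p66High parental replicate 3 and 3.19 to 10.99 CPM in the other 8 tumours. All 9 were higher with p66Low selection, where 16.6% of all genes were called. All 9 were also lower in p66High than in p66Low aggressive tumours, where 21% were called. Fewer of the 9 passed in both without the 3 libraries, a fit in which fewer genes were called in all. The part of these cells in the result for Csf3r was not tested. The receptor and its ligand were highest in different groups, Csf3r in p66Low aggressive and Csf3 in p66High parental tumours.

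**Figure D3:**
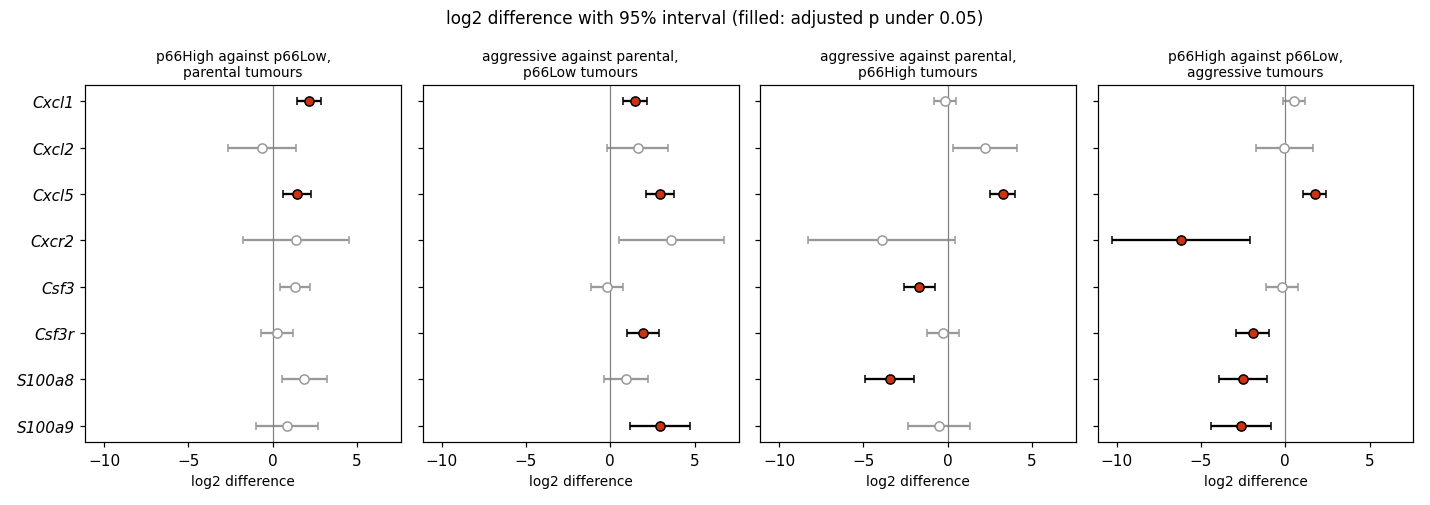
log2 difference (horizontal axis) with its 95% interval for the 8 tested members in the 4 pairwise comparisons; filled points passed the test (adjusted p under 0.05). Cxcl5 lies to the right of 0 in all 4 panels, and the widest intervals belong to Cxcr2.

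S100a8 was the most abundant member per length in parental tumours and fell with selection in the p66High line. It was at 2.65, 3.12 and 2.24 CPM in p66Low parental tumours and at 5.84, 13.97 and 9.50 CPM in p66High parental tumours. The p66High aggressive tumours had 0.685, 1.10 and 0.906 CPM, below every other tumour. The p66Low aggressive tumours had 1.77, 10.64 and 2.53 CPM, so 2 of the 3 were within or below the range of p66Low parental tumours and replicate 2 stood far above. The fall with selection in p66High was 10.9-fold (log2 difference -3.45, SE 0.63, adjusted p = 0.00943) and passed in 23 of 24 alternative settings. The exception was the sum of tumours with one title number (-3.41, adjusted p = 0.0736). In p66Low the difference was 0.92 (SE 0.56, adjusted p = 0.301), and it was -0.29 without p66Low aggressive replicate 2. The interaction of -4.38 (SE 0.84, adjusted p = 0.00997) passed in all 23 settings that gave it.

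Between parental lines the S100a8 difference was 1.87 (SE 0.57, adjusted p = 0.0711) and did not pass. The 2 groups did not overlap, which held for 29.9% of all genes tested in this comparison. The S100a8 difference passed in 8 of 24 settings, among them the fits without any one p66Low aggressive tumour (adjusted p = 0.00657 to 0.0494). Without the 3 libraries with lymph node genes, a fit in which it also passed, it was 1.90. Between aggressive lines S100a8 was lower in p66High (log2 difference -2.50, SE 0.61, adjusted p = 0.0138). This difference was -1.49 without the 3 libraries with lymph node genes (adjusted p = 0.103) and -2.32 without p66High aggressive replicate 1 (adjusted p = 0.0545).

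S100a9, the calprotectin partner, was far less abundant than S100a8 and peaked in another group. It was at 0.324, 0.244 and 0.0520 CPM in the p66Low parental group and 0.451, 0.422 and 0.262 CPM in p66High parental tumours. The p66Low aggressive tumours had 0.990, 3.36 and 0.400 CPM and the p66High aggressive tumours 0.203, 0.314 and 0.259 CPM. The p66Low aggressive group was above both the p66Low parental and the p66High aggressive group without overlap. Groups did not overlap for 32.8% and 38.2% of all genes tested in these 2 comparisons. Replicate 3 of the p66Low aggressive group was within the range of p66High parental tumours. Selection raised S100a9 by 2.96 in p66Low (SE 0.77, adjusted p = 0.0241), and p66High aggressive tumours were lower than p66Low aggressive ones (-2.64, SE 0.76, adjusted p = 0.0297). Both values moved with the libraries rich in lymph node genes: without these 3 they were 0.96 (adjusted p = 0.577) and -0.62 (adjusted p = 0.741), and without p66Low aggressive replicate 2 alone they were 1.69 (adjusted p = 0.154) and -1.36 (adjusted p = 0.229). The rise did not pass without p66Low parental replicate 2 or 3 either (adjusted p = 0.0530 and 0.0881), nor the latter difference without any one p66High aggressive tumour (adjusted p = 0.0709 to 0.0976) or with tumours of one title number summed (-2.69, adjusted p = 0.0971). In p66High the difference with selection was -0.54 (SE 0.79, adjusted p = 0.738).

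The ratio of S100a8 to S100a9, per kb of exon, separated parental from aggressive tumours rather than p66Low from p66High. It was 6.14, 9.65 and 32.3 in the p66Low parental group and 9.74, 24.9 and 27.2 in p66High parental tumours. It was 1.35, 2.38 and 4.75 in p66Low aggressive and 2.54, 2.63 and 2.63 in p66High aggressive tumours. All 6 parental tumours were above all 6 aggressive tumours. The ratio rests on few S100a9 counts in places (12, 6 and 2 counts in p66Low parental tumours and 6 to 8 counts in p66High aggressive tumours). Nearest to each other across the stages were p66Low parental replicate 1 (6.14, 12 counts of S100a9) and p66Low aggressive replicate 3 (4.75, 28 counts). Whether that gap exceeds counting error was not tested. With selection, S100a9 passed the test and S100a8 did not in p66Low, and S100a8 passed and S100a9 did not in p66High.

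**Figure D4:**
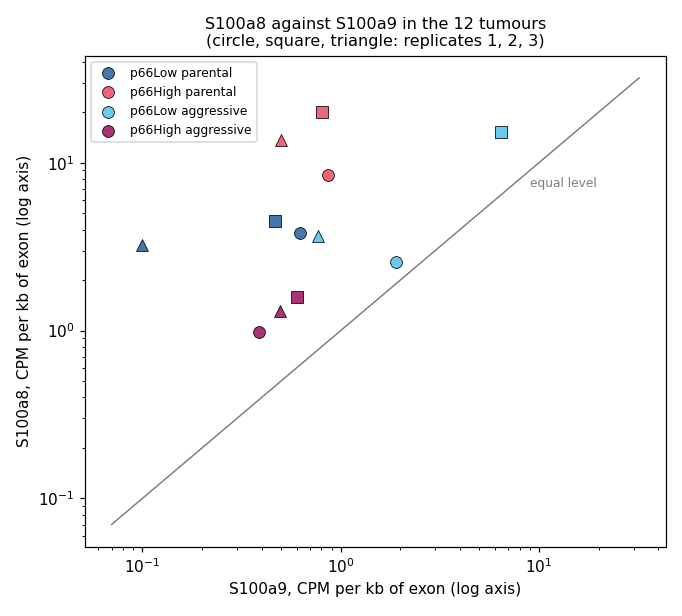
S100a8 (vertical, log axis) against S100a9 (horizontal, log axis) in CPM per kb of exon for the 12 tumours; the line marks equal levels. The parental tumours lie 6.14- to 32.3-fold above the line and the aggressive tumours 1.35- to 4.75-fold above it.

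Across the 12 tumours the members fell into loose sets by the correlation of log2 CPM, given as a description over tumours that share groups and libraries. Cxcr2 and Csf3r had a Pearson r of 0.80, Cxcr2 and S100a9 0.75, and Csf3r and S100a9 0.71, with p66Low aggressive replicate 2 highest in all 3 genes. S100a8 went with Csf3 (0.67) more than with S100a9 (0.41). Cxcl5 and S100a8 ran in opposite directions (-0.60), and Cxcl1 and Cxcl5 had 0.58. The r with Cxcr2 was -0.10 for Cxcl1, 0.12 for Cxcl2 and -0.14 for Cxcl5, and Cxcl3 was not included. Over the 9 tumours not rich in lymph node genes these values were -0.46, -0.23 and -0.57. Cxcr2 had at most 8 counts in each of those 9, so its correlations there rest on counts near the floor. Over the same 9, Cxcr2 had 0.56 with Csf3r and 0.38 with S100a9, Csf3r and S100a9 had 0.28, S100a8 had 0.67 with Csf3 and 0.38 with S100a9, and Cxcl5 had -0.69 with S100a8 and 0.66 with Cxcl1.

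For the members with a mean of at least 1 CPM, the 3 genes most like each over the 12 tumours were taken from 15549 genes at that level or above, with all 12 libraries kept. Those closest to Cxcl1 were the secreted Wnt inhibitor Wif1 (r = 0.98), the desmosomal cadherin Dsc2 (0.97) and E130311K13Rik (0.96). Wif1 was at 0.0540 to 0.988 CPM in p66Low parental tumours and at 8.86 to 13.6 CPM in p66High parental tumours. Those closest to Cxcl5 were the chloride channel gene Clcn1 (0.95), the metalloproteinase gene Tll1 (0.94) and the growth factor gene Bmp6 (0.94). Csf3r was closest to the antigen-presentation gene H2-DMb2 (0.98), to Ccdc88b (0.98) and to Mir5107 (0.98), which is annotated within Cd74 on the same strand, so that reads of these genes cannot be told apart. S100a8 was closest to the Schlafen gene Slfn4, known from myeloid cells (0.92), to the interleukin-11 receptor gene Il11ra1 (0.92) and to Fgd3 (0.91). Slfn4 was at 9.40 to 22.2 CPM in p66High parental and 0.812 to 2.12 CPM in p66High aggressive tumours.

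Detection of 21 neutrophil markers differed from gene to gene. Ly6g, the standard surface marker of mouse neutrophils, was at 0 counts in 11 of 12 tumours and at 4 counts in p66Low aggressive replicate 2. The granule genes Camp and Ngp were at 0 in 10 tumours each. Other granule genes were detected more widely: the protease Prtn3 had 533 counts and Mmp8 114 counts with no tumour at 0, and the surface marker Cd177 had 302 counts with 1 tumour at 0. The summed level of the 9 markers left out by the filter on low counts (Ly6g, Camp, Ngp, Retnlg, Stfa2l1, Elane, Mpo, Ctsg and Cebpe) was at most 0.108 CPM in p66Low parental, 0.180 CPM in p66High parental and 0.173 CPM in p66High aggressive tumours. It was 0.729, 1.22 and 0.157 CPM in the p66Low aggressive tumours, so the libraries with most of these genes were 2 of those rich in lymph node genes. The marker sum of 21 genes was 98.1% Ltf, lactoferrin, which mammary epithelium also secretes. Without Ltf it was 6.41 to 8.56 CPM in p66Low parental, 9.83 to 12.6 CPM in p66High parental, 9.56 to 16.4 CPM in p66Low aggressive and 6.86 to 8.17 CPM in p66High aggressive tumours.

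**Figure D5:**
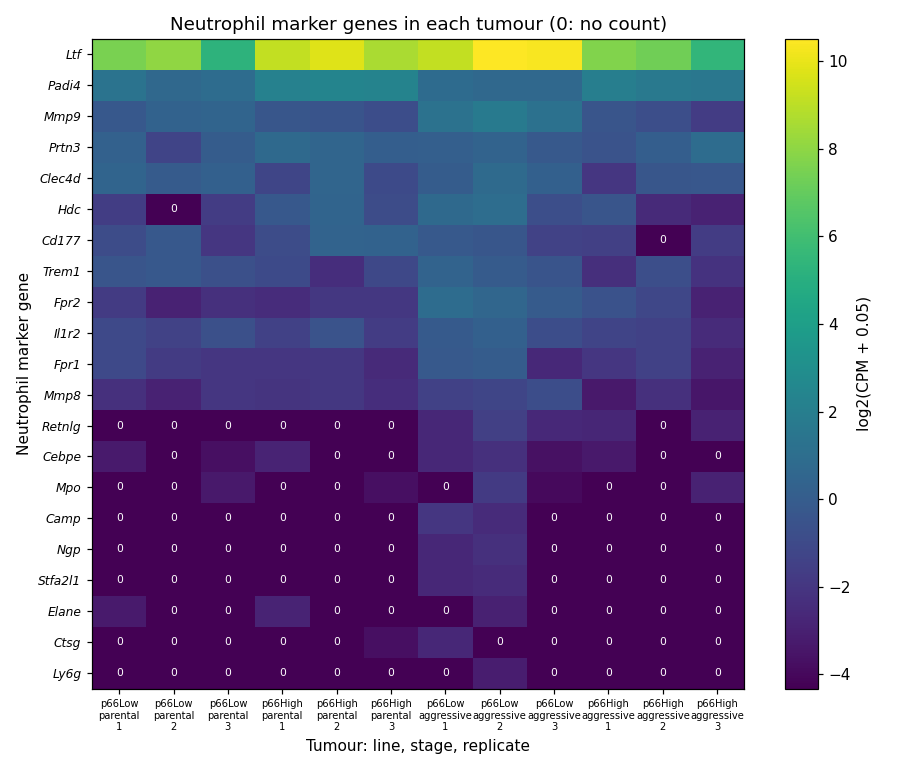
Level of 21 neutrophil marker genes (rows) in the 12 tumours (columns), as log2(CPM + 0.05) by colour; a printed 0 marks genes without a count. Ltf dominates, and Ly6g, Camp, Ngp and Stfa2l1 have counts in no tumour outside the p66Low aggressive group.

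Of these markers 12 were tested. The shares of all genes called were 8.08% between parental lines, 16.6% with p66Low selection, 5.94% with p66High selection and 21% between aggressive lines. In p66Low selection 4 were higher: the formyl peptide receptor Fpr2 (3.02, adjusted p = 0.00628), Ltf (2.78, adjusted p = 0.0217), the gelatinase Mmp9 (1.24, adjusted p = 0.0297) and the histamine-forming enzyme Hdc (2.82, adjusted p = 0.0491). Between aggressive lines 6 were lower in p66High, among them Mmp9 (-2.34), Ltf (-3.03) and the neutrophil collagenase Mmp8 (-2.29), and 1 was higher, the histone deiminase Padi4 (1.07). Padi4 was also the 1 marker higher in p66High parental tumours (1.30, adjusted p = 0.00385). That 1 of 12 is close to the 8.08% of all genes called there. With p66High selection none passed in edgeR, 3 were lower at an unadjusted p under 0.05, and DESeq2 called 2 and limma-voom 0. The values with the smallest p were Ltf at -2.16 (adjusted p = 0.0924) and Cd177 at -2.33 (adjusted p = 0.102). With the 3 lymph-node-rich libraries left out, Mmp9 was the 1 marker lower between aggressive lines, and with p66Low selection 0 passed and 3 were higher at an unadjusted p under 0.05 (median 0.13). The median over the 12 markers with all libraries was 0.16, 0.98, -0.43 and -1.67 for the p66 difference in parental tumours, selection in p66Low, selection in p66High and the p66 difference in aggressive tumours.

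Markers of macrophages and monocytes can also carry Csf3r, S100a8 and S100a9. The summed level of 14 such genes was 574 to 642 CPM in p66Low parental, 714 to 871 CPM in p66High parental, 799 to 1408 CPM in p66Low aggressive and 382 to 724 CPM in p66High aggressive tumours. In p66Low selection 7 of the 14 were higher (16.6% of all genes were called there), led by the monocyte gene Ly6c2 (3.79, adjusted p = 0.0024) and the complement gene C1qc (0.97, adjusted p = 0.00429). Between aggressive lines, where 21% of all genes were called, 10 were lower in p66High and 1 higher. Of the 14, 2 were higher with p66Low selection without the 3 libraries with lymph node genes, C1qb and C1qc (median 0.60), the same 2 were lower between aggressive lines, and Ly6c2 was not called. Squamous epithelium is another source of S100a8 and S100a9. Its 15 markers summed to 22.4 to 60.6 CPM in p66Low parental tumours, 44.7 to 51.6 CPM in p66High parental, 17.4 to 47.3 CPM in p66Low aggressive and 12.2 to 24.9 CPM in p66High aggressive tumours. Of these markers 5 were tested, and among these the suprabasal keratin Krt10 passed. It was higher in p66High parental tumours (1.12, adjusted p = 0.0400) and lower with p66High selection (-1.38, adjusted p = 0.0216). The shares of all genes called there were 8.08% and 5.94%. With p66High selection 4 of the 5 were lower at an unadjusted p under 0.05, and DESeq2 called 3 and limma-voom 1. Krt10 was not called without the 3 libraries. The adipocyte markers summed to 25.4 to 168 CPM in p66Low parental and 132 to 342 CPM in p66High parental tumours. They summed to 39.9 to 337 CPM in p66Low aggressive and 15.2 to 121 CPM in p66High aggressive tumours. With p66High selection 1 of 8 passed as lower, where 5.94% of all genes were called. At an unadjusted p under 0.05, 6 of the 8 were lower there, and DESeq2 called 1 and limma-voom 0. The median log2 difference over the 8 was -2.60. The part of these cells in the results for Csf3r, S100a8 and S100a9 was not tested.

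Further chemokines and receptors of neutrophil attraction had 11 tested genes. Of these, 0 passed between parental lines or with p66High selection in edgeR, and 0 had an unadjusted p under 0.05 or were called by DESeq2 or limma-voom. The smallest p was that of Ltb4r1 in the former (1.44, adjusted p = 0.259) and Ccrl2 in the latter (-0.71, adjusted p = 0.223). With p66Low selection Ccr1, a receptor for inflammatory CC chemokines on monocytes and neutrophils, rose by 1.00 (adjusted p = 0.0098). It was the 1 gene of the 11 called in that comparison, where 16.6% of all genes were called. Between aggressive lines 4 were lower in p66High: Ccrl2 (-1.57), Ccr1 (-0.95), the scavenging receptor Ackr2 (-2.30) and the chemokine Ccl4 (-2.57), against a background of 21% of genes called. Ccrl2 was the 1 gene called there without the 3 libraries with lymph node genes, and with p66Low selection 0 passed and 2 were higher at an unadjusted p under 0.05. Cxcr1, the second receptor for ELR chemokines, had 4 counts in p66Low aggressive replicate 2 and 0 in the other 11 tumours.

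Of 24 tested cytokines and NF-kB regulators that act upstream of these ligands, 1 passed between parental lines. It was the alarmin Il33, higher in p66High (1.21, adjusted p = 0.0305). Calls over all genes stood at 8.08% there, 16.6% with p66Low selection, 5.94% with p66High selection and 21% between aggressive lines. In p66Low selection 10 were higher, led by the NF-kB inhibitor and target Nfkbia (0.68, adjusted p = 0.00428), Il23a (1.79, adjusted p = 0.0076), Il33 (1.41, adjusted p = 0.01) and Nfkb1 (0.51, adjusted p = 0.0146), and 1 was lower. In p66High selection 2 were lower: the adaptor Myd88 (-0.62, adjusted p = 0.013) and the interleukin gene Il1b (-1.76, adjusted p = 0.0182). Between aggressive lines 8 were lower in p66High, among them Il1b (-2.46), Nfkbia (-0.72) and Tnf (-2.61), and 1 was higher, the C/EBP factor Cebpb (0.68, adjusted p = 0.00293). Leaving out the 3 libraries, 1 was higher with p66Low selection (Il23a), 1 lower with p66High selection (Il1b) and 2 lower between aggressive lines (Il1b and Tnf), and Il33 was still called between parental lines. Il17a, an inducer of Cxcl1, Cxcl5 and Csf3, had 0 counts in every tumour. Each count of 0 allows up to 3 counts.

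Genes of granulocyte and macrophage growth had 12 tested members. Beside them, 8.08% of all genes were called between parental lines, 16.6% with p66Low selection, 5.94% with p66High selection and 21% between aggressive lines. Cebpa, a transcription factor of the granulocyte lineage that epithelial and fat cells also make, was the 1 gene called between parental lines (0.91, adjusted p = 0.0035) and with p66High selection (-1.01, adjusted p = 0.00302). Its level was 32.2 ± 2.2 CPM in p66Low parental, 60.4 ± 7.0 CPM in p66High parental and 30.0 ± 4.8 CPM in p66High aggressive tumours (SD, n = 3). In p66Low selection 8 were higher and 1 lower, led by the kinase Jak2, which signals below Csf3r (0.60), the myeloid factor Spi1 (1.42), the macrophage growth factor Csf1 (0.63) and its receptor Csf1r (1.02). Between aggressive lines 7 were lower in p66High and 2 higher. In both comparisons 0 passed without the 3 libraries with lymph node genes, with 5 higher after p66Low selection and 4 lower and 1 higher between aggressive lines at an unadjusted p under 0.05, while Cebpa was still called in both of its comparisons.

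Among calprotectin receptors and their co-factors, Tlr4, which calprotectin can stimulate, and its co-receptor Cd14 were higher in p66High parental tumours (0.56, adjusted p = 0.015, and 1.08, adjusted p = 0.0136) and lower with p66High selection (-0.68, adjusted p = 0.00789, and -1.02, adjusted p = 0.0228). Bsg, a cell-surface receptor for S100a9, went the other way between parental lines (-1.69, adjusted p = 0.0148). Of 8 tested genes, 2 were higher and 1 lower between parental lines, and 2 were lower with p66High selection. The shares of all genes called there were 8.08% and 5.94%. In p66Low selection and between aggressive lines 1 gene passed, Mcam (-0.57 and 0.49), while 16.6% and 21% of all genes were called. The S100 counts that follow are to be set beside these same shares. Of 9 other S100 genes tested, 1 was lower in p66High parental tumours, S100a14 (-1.76, adjusted p = 0.0142). With p66High selection 1 was lower, S100a13 (-0.91, adjusted p = 0.0147). With p66Low selection 2 were lower, the nervous-system and tumour marker S100b (-1.46, adjusted p = 0.00356) and S100a14 (-1.62, adjusted p = 0.0133). Without the 3 libraries with lymph node genes these calls of Tlr4, Cd14, Bsg and S100a13 were still made, and those of Mcam, S100a14 and S100b were not. Between aggressive lines, with all libraries, 3 of the 9 S100 genes were lower in p66High and 1 was higher, where 21% of all genes were called. The lower ones were S100a16 (-0.51), S100a14 (-1.33) and S100a13 (-0.58), and the higher one was S100b (1.35, adjusted p = 0.00357).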

How the data were processed

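The authors deposited whole-number read counts per gene for 12 tumours, not normalized. Per the submitters' processing notes, Trimmomatic 0.32, STAR 2.3.0e, featureCounts 1.4.4 and mm10 were used. For the annotation, strand setting and counting of read pairs, the methods are not stated by these sources. Per the labels' protocols, libraries were stranded and depleted of ribosomal RNA.

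Counts were filtered with filterByExpr, scaled by TMM and fitted with edgeR 4.0.16 (R 4.3.3; quasi-likelihood test, 12 tumours in 4 groups, 8 residual degrees of freedom, Benjamini-Hochberg over 19370 genes, threshold 0.05). The SE is the absolute log2 difference over the square root of F. Intervals are 95%. CPM per kb divides by GENCODE exon length. The fit was tested on simulated data in which every gene had the same spread and only genes with a mean above 1 CPM were changed. That test therefore does not cover Cxcl2, Cxcr2, Csf3 and S100a9, whose means were lower. Alternatives used DESeq2 1.42.0, limma 3.58.1 (voom), other scalings and filters, and left out tumours. In both p66High groups the sample titles give replicates 1 and 2 the same number, followed by the letter L in replicate 1 and R in replicate 2. The meaning of number and letter is not stated. No title number is shared within the p66Low groups, so summing by title number changes the p66High groups only.

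The 9 genes and all lists were chosen with earlier results of these data known. Named from each list were up to 4 genes past the threshold with the smallest p, otherwise up to 2 as values, and per member at or above 1 CPM the 3 genes of highest Pearson r on log2 CPM (prior count 2). Cxcr1, Il17a and the neutrophil genes given by count were named outside this rule, after their values were seen.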

Additional observations from a re-analysis of the deposited data

Results flagged for a closer look

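The change with selection differed between the p66High and p66Low lines, by the interaction test, for 3 of the 8 members tested, where 12.4% of all genes did. For Cxcl1 the difference was -1.62 on the log2 scale: it rose in p66Low and not detectably in p66High, in which parental tumours already had 5.41 to 6.30 CPM. For Csf3r it was -2.20, with a rise in p66Low to 4.48 to 6.47 CPM in libraries with and without lymph node genes. Without the 3 libraries with those genes the interaction was -1.87 for Cxcl1 (adjusted p = 0.125) and -1.70 for Csf3r (adjusted p = 0.287), and did not pass. For S100a8 it was -4.38, with a fall in p66High from 5.84 to 13.97 CPM to 0.685 to 1.10 CPM.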

How the results depend on the processing

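No paired analysis was possible because the groups compared share no replicate numbers in the labels. The members called numbered 2 in the parental p66 difference, 4 in p66Low selection, 3 in p66High selection, 5 in the aggressive p66 difference and 3 in the interaction. Leaving out 1 tumour in turn gave 1 to 4, 2 to 5, 2 to 3, 2 to 5 and 1 to 6. DESeq2 called 4 in the parental p66 difference and 5 in the interaction, and limma-voom 1 in the parental and 2 in the aggressive p66 difference. The interaction had 5 with no filter. The aggressive p66 difference had 3 with at least 1 CPM in 3 tumours and 2 in a fit of the 6 tumours compared. With tumours sharing a title number summed, 1 was called in the parental p66 difference, p66High selection and the interaction, and 3 in the aggressive p66 difference. Without the 3 lymph-node-rich libraries 1 was called in p66Low selection, the aggressive p66 difference and the interaction, and without both p66Low aggressive ones, an alternative chosen after seeing the data, 2, 1 and 1.

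Differences that changed sign were all short of the threshold. With 1 tumour left out, Cxcr2 between parental lines ran from -1.33 to 1.85, S100a8 in p66Low selection from -0.286 to 1.33, Csf3 there from -0.44 to 0.0999, Csf3r in p66High selection from -0.94 to 0.0636, and Cxcl2 and Csf3 between aggressive lines from -1.03 to 0.548 and -0.489 to 0.0518. The interaction of Cxcl2 ran from -0.41 to 1.17 and was -0.24 with limma-voom. Without both p66Low aggressive libraries Cxcr2 was -0.35 and S100a8 -0.0782 in p66Low selection, and Csf3 0.563 between aggressive lines. Without all 3, S100a8 was -0.0783, Csf3r in p66High selection 0.0025 and Csf3 between aggressive lines 0.562. Cxcl2 between aggressive lines was 0.163 with title numbers summed. So summed, the fall of S100a8 in p66High was -3.41 (adjusted p = 0.0736), and summing leaves fewer samples. Of the calls of single members, limma-voom did not make those of Cxcl5 between parental lines, S100a9 in p66Low selection, and Cxcr2, S100a8 and S100a9 between aggressive lines (adjusted p = 0.0859 to 0.269). The causes were otherwise not tested.

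Over all genes, in the same order of comparisons, 1565, 3221, 1150, 4077 and 2395 were called. DESeq2 called 2549 in the parental p66 difference and 2261 in p66High selection, the fit of 6 tumours 2128 in p66Low selection, and summing by title number 908 in the parental p66 difference, 305 in p66High selection and 1179 in the interaction. Without the 3 libraries the counts were 838, 705, 586, 1075 and 335, and without both they were 831 in p66Low selection, 1336 in the aggressive p66 difference and 569 in the interaction. Leaving out 1 tumour gave 871 to 1927, 1545 to 3505, 457 to 1469, 2438 to 4502 and 1179 to 3278. Scaling by library size alone made 73.6% of calls in p66Low selection higher against 57.7%, and 23.3% of those of the interaction against 35.4%. Depth limits Cxcl3 and Cxcr2 most, with groups of at most 3 counts.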
